A study of Mus musculus with 6 samples.

Results

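The 2'-5' oligoadenylate synthetase (OAS) family of the mouse was read here through 8 genes, Oas1a, Oas1b, Oas1c, Oas1g, Oas2, Oas3, Oasl1 and Oasl2. They were chosen by gene symbol, and the family itself was selected on a measured value, the low signal of Oas1a in TIAR KO cells. The array carried 12 probes for these 8 genes, out of 55681 probes with 34797 gene names. Of the 12 probes, 10 were rated well above background on both arrays of some group.

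The cells were immortalized murine embryonic fibroblasts (MEF), and total RNA labelled with the dye Cy3 was hybridized to 6 one-colour Agilent arrays. There were 2 arrays of wild-type (WT) MEF with the strain label W4, 2 of MEF with the Tia1 gene knocked out (TIA1 KO) from BALB/c, and 2 of MEF with the gene of the TIA1-related protein TIAR, Tial1, knocked out (TIAR KO) from C57BL/6. The labels name no treatment, interferon or virus. Each genotype came with its own strain and cell line, so an effect of the genotype, of the strain or of the cell line cannot be told apart. The labels give 2 independent replicates per condition, and nothing states that they came from separate animals or lines, so p-values measure the spread between these samples.

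OAS enzymes bind double-stranded RNA and then join ATP into short chains of 2'-5'-linked adenosine, known as 2-5A. 2-5A is a messenger of the antiviral response. The genes belong to the interferon-stimulated genes. Type I interferon leads to a complex with STAT2 and IRF9 that binds the interferon-stimulated response element (ISRE) in their promoters. TIA1 and TIAR are RNA-binding proteins that act in splicing, translation and stress granules.

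The family lies in 2 places on chromosome 5. By the probe positions of the files (mm9), the Oas1, Oas2 and Oas3 genes span 191.3 kb, and the probes of Oasl1 and Oasl2 lie 5792 kb away, within 25.8 kb. RefSeq promoters (GRCm38.p6) matched 6 of the 8 genes by symbol, namely Oas1a, Oas1c, Oas1g, Oas3, Oasl1 and Oasl2. The 250 bases upstream of each start were searched on both strands for an ISRE-like motif, namely GAAA, any 2 bases and GAAA again, which reads TTTC, any 2 bases and TTTC on the other strand. The motif was present in 4 of the 6 and in 978 of 32851 RefSeq promoters of that length (2.98%). It was also present in 10 of the 20 promoters found for other interferon-induced genes. The last 120 bases before the start are given for 5 genes, because their signals differed. Oas1a, Oas1c, Oas3 and Oasl1 were lower in both knockouts, and Oas1g was near background throughout. Motif matches are in capitals, and in Oas1a, Oas1g and Oas1c 2 matches overlap each other.
Oas1a: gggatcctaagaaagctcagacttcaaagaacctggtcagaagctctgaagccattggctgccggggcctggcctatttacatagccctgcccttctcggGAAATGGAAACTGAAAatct
Oas1g: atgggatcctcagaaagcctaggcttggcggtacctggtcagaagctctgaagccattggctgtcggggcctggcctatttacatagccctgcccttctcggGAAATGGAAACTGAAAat
Oas1c: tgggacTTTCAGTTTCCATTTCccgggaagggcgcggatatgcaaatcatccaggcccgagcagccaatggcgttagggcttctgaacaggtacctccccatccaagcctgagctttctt
Oas3: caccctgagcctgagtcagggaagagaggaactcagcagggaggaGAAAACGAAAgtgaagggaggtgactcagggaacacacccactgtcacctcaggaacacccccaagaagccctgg
Oasl1: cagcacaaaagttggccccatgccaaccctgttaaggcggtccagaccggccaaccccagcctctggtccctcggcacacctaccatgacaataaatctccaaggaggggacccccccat
These stretches lie on the minus strand at chr5:120907526-120907645 (Oas1a), chr5:120887614-120887733 (Oas1g), chr5:120812515-120812634 (Oas1c) and chr5:120777660-120777779 (Oas3), and on the plus strand at chr5:114923120-114923239 (Oasl1). Shifted by 2 bases, the Oas1a and Oas1g stretches were identical at 108 of 118 bases (91.5%). Oasl1 and Oasl2 held no match in this window. A match describes the letters only.

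The knocked-out genes were read first. The brightest Tia1 probe gave log2 values of 10.72 and 8.54 (WT) and of 7.87 and 8.44 (TIA1 KO), and its drop was not significant (limma adjusted p = 0.288). The second read 9.56 and 9.90 (WT) and 7.57 and 8.65 (TIA1 KO), without overlap but also without passing the test (limma adjusted p = 0.116). The third, not well above background in WT MEF, read 7.44 and 7.25 (WT) and 7.88 and 8.54 (TIA1 KO), so the Tia1 probes disagree. The second Tial1 probe, whose spots were usable on all arrays, was lower in TIAR KO MEF, at 10.00 and 9.65 against 11.71 and 11.09 in WT MEF (limma adjusted p = 0.0254). All values below are log2 normalized intensities, with replicate 1 before replicate 2, and levels are compared between groups for the same probe and not between probes.

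Of the 8 genes, 6 had lower normalized signals in both knockouts than in WT MEF (Oas1a, Oas1c, Oas2, Oas3, Oasl1 and Oasl2). Another, Oas1b, stayed bright in every group by its brightest probe, and Oas1g was near background throughout. For Oas2 and Oasl2 the raw intensity on TIA1 KO array 1 was not below WT, as given further on. Leaving out Oas1a, whose values chose the family, both knockout arrays lay below both WT arrays for 6 of the other 10 probes in each knockout. Over all probes this was so for 39.2% in the TIA1 KO and 27% in the TIAR KO comparison. The 10 probes had a median log2 fold change of −1.30 (TIA1 KO) and −1.46 (TIAR KO), against −0.09 and −0.02 over all probes. The 2 comparisons share the WT arrays, the choice of the family used the TIAR KO comparison, and these counts are a description. RNA of a whole culture was measured, so fewer cells that express a gene and less RNA per cell cannot be told apart.

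**Figure D1:**
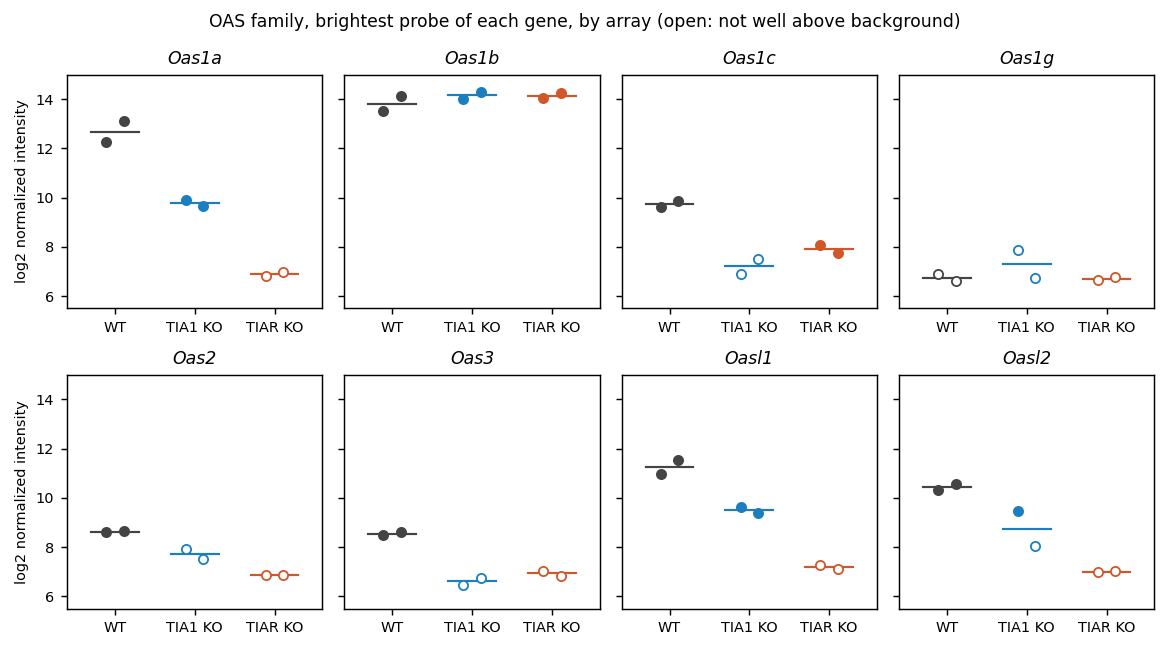
Log2 normalized intensity of the brightest probe of each of the 8 OAS genes on the 6 arrays, with a point for each array, a bar for the group mean, filled points well above background and open points not. The WT points lie above both knockouts in 6 genes, Oas1b is bright in all 3 groups and Oas1g is open on all 6 arrays.

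Oas1a, which makes 2-5A, was lower in both knockouts than in WT MEF. Its brightest probe (A_55_P1998943, chr5:121346735-121346794, mm9, minus strand) read 12.26 and 13.10 (WT), 9.89 and 9.68 (TIA1 KO) and 6.82 and 6.99 (TIAR KO). The 3 groups did not overlap, and the TIAR KO arrays were not well above background. The raw spot intensities were 5343 and 8709 (WT), 1339 and 988 (TIA1 KO) and 117 and 108 (TIAR KO). Against WT MEF, the log2 fold change was −2.89 ± 0.33 (SE, n = 2 arrays per group) with TIA1 lost and −5.78 ± 0.30 with TIAR lost, which put WT at least 50.9-fold above TIAR KO MEF. That limit sets each array of the lower group to the lowest value of any probe rated well above background on it. The probe's own value is kept where that is higher. On TIA1 KO array 2 the lowest such value was 5.78, below all OAS probes, so their own values were kept. The folds given as at least so large are therefore not detection limits. Oas1a was the gene whose drop led to the choice of the family, so its values are a description and no test is given for it.

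The second Oas1a probe (A_55_P1998942, chr5:121348338-121348397) was also lower in both knockouts but cannot rank them. It read 10.61 and 10.89 (WT), 7.10 and 7.69 (TIA1 KO) and 6.62 and 7.13 (TIAR KO), and neither knockout was well above background. The log2 fold changes were −3.35 ± 0.27 and −3.87 ± 0.22, with WT at least 7.40-fold and 14.1-fold higher, and by this probe the knockouts overlapped. The files list RefSeq transcripts of both Oas1a and Oas1g for the brightest probe and of Oas1a alone for the second. The brightest probe also resembles the probe of Oas1f, another gene of the cluster. The most alike stretch of 30 bases is shown because it bears on which transcripts the probe could read, with the bases that differ in capitals.
Oas1a probe: tgtccacctgttggAaggttctgtcTGaCA
Oas1f probe: tgtccacctgttggGaggttctgtcCAaTG
They matched at 25 of 30 bases. Oas1f read 10.81 and 10.96 (WT), 9.05 and 8.20 (TIA1 KO) and 7.32 and 7.44 (TIAR KO). It was well above background on 0 TIA1 KO arrays and 1 TIAR KO array, so the knockouts cannot be ranked for it. Whether Oas1f RNA contributed to the Oas1a signal was not tested.

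**Figure D2:**
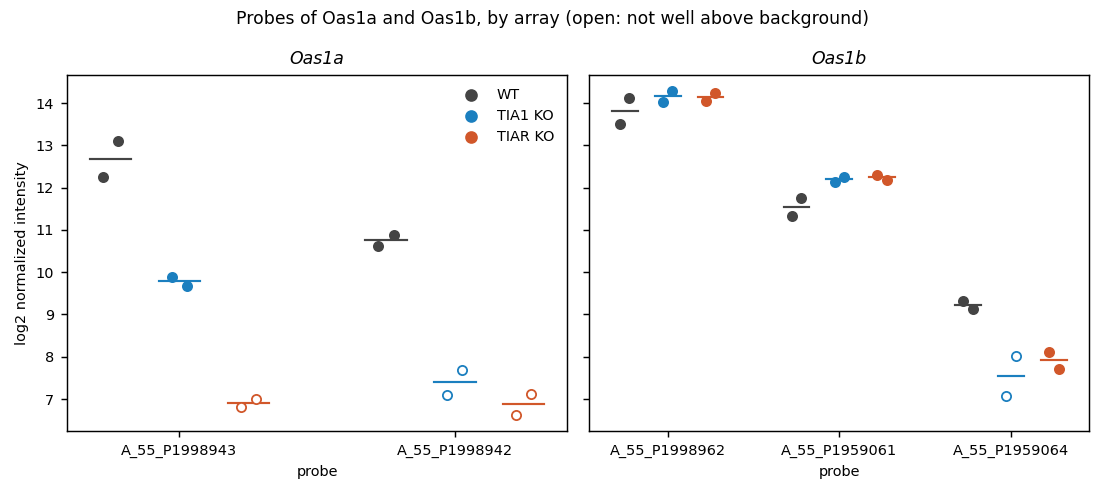
Log2 normalized intensity of the 2 probes of Oas1a and the 3 probes of Oas1b on each array, with bars for group means, filled points well above background and open points not. The TIA1 KO points lie between the other groups for the brightest Oas1a probe and near the TIAR KO points for the second, and the Oas1b probes do not move together.

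Oas1g, an active synthetase and a close relative of Oas1a, was not well above background on any array. Its probes read between 6.31 and 7.89, with the highest value on TIA1 KO array 1. The files list transcripts of both Oas1a and Oas1g for one of its probes, A_55_P1998979. The printed promoter stretches of Oas1a and Oas1g hold the same motif matches. No fold change is given for Oas1g.

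Oas1b, the flavivirus resistance gene, carries a premature stop codon in many laboratory strains, and RefSeq lists it as a transcribed pseudogene. Its brightest probe (A_55_P1998962, chr5:121274109-121274168, plus strand) read 13.50 and 14.12 (WT), 14.02 and 14.29 (TIA1 KO) and 14.04 and 14.24 (TIAR KO). The log2 fold changes were 0.35 ± 0.27 (limma adjusted p = 0.434) with TIA1 lost and 0.33 ± 0.24 with TIAR lost, with overlapping arrays in both, and the TIA1 KO value turned to −1.25 with scaling to a common array median. A second probe, A_55_P1959061, which shares 42 bases with the first, read 11.33 and 11.75 (WT), 12.14 and 12.26 (TIA1 KO) and 12.30 and 12.18 (TIAR KO). Its knockout arrays lay above both WT arrays, but the difference in TIA1 KO MEF, 0.65 ± 0.21, did not pass the test (limma adjusted p = 0.150). The third probe, A_55_P1959064, lies upstream in the same gene and went the other way. It read 9.33 and 9.14 (WT), 7.08 and 8.02 (TIA1 KO) and 8.11 and 7.72 (TIAR KO), with log2 fold changes of −1.69 ± 0.36 (limma adjusted p = 0.0925) and −1.32 ± 0.19, the TIA1 KO arrays not being well above background. The probes of Oas1b thus disagree, and whether transcript forms or strain differences under a probe had a part in it was not tested.

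Oas1c, another gene of the Oas1 cluster, was lower in both knockouts. Its probe read 9.63 and 9.88 (WT), 6.91 and 7.50 (TIA1 KO) and 8.06 and 7.77 (TIAR KO), with no overlap between groups. In TIA1 KO MEF it fell by 2.55 ± 0.27 on the log2 scale (limma adjusted p = 0.0274), where it was not well above background, so that WT was at least 3.97-fold higher. In TIAR KO MEF the log2 fold change was −1.84 ± 0.18. By the brightest probes, Oas1c was the only gene among the 8 that was well above background in TIAR KO but not in TIA1 KO MEF. The direct difference between the knockouts, 0.71 ± 0.27, did not pass the test (limma adjusted p = 0.230).

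Oas2 and Oas3 encode the larger synthetases, built of repeated OAS units. Oas2 read 8.60 and 8.65 (WT), 7.91 and 7.54 (TIA1 KO) and 6.89 and 6.88 (TIAR KO). Its difference in TIA1 KO MEF, −0.90 ± 0.20, did not pass the test (limma adjusted p = 0.0943), and in TIAR KO MEF it was −1.74 ± 0.14, at least 2.98-fold higher in WT. Oas3 read 8.48 and 8.60 (WT), 6.48 and 6.76 (TIA1 KO) and 7.02 and 6.85 (TIAR KO). It fell by 1.92 ± 0.18 on the log2 scale in TIA1 KO MEF (limma adjusted p = 0.0226), with WT at least 2.21-fold higher, and the value in TIAR KO MEF was −1.60 ± 0.15, with WT at least 2.69-fold higher. Both genes were well above background in WT MEF and in neither knockout, so the 2 knockouts cannot be ranked for them.

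Oasl1 and Oasl2 encode OAS-like proteins with ubiquitin-like domains. OASL1 lacks synthetase activity and is known to hold back the translation of IRF7, whereas mouse OASL2 makes 2-5A. Oasl1 read 10.96 and 11.55 (WT), 9.62 and 9.38 (TIA1 KO) and 7.28 and 7.12 (TIAR KO). The groups did not overlap. The log2 fold change was −1.76 ± 0.26 (limma adjusted p = 0.0534) in TIA1 KO, which narrowly missed the threshold, and −4.06 ± 0.23 in TIAR KO MEF, at least 16.2-fold higher in WT. Compared directly, Oasl1 was lower in TIAR KO than in TIA1 KO MEF (log2 fold change −2.30 ± 0.18, limma adjusted p = 0.0154), at least 4.79-fold. The choice of the family used the same TIAR KO arrays, so this p is not independent of that choice. Oasl2 read 10.34 and 10.56 (WT), 9.45 and 8.05 (TIA1 KO) and 6.98 and 7.03 (TIAR KO). The TIA1 KO arrays of Oasl2 stood far apart, only the first being well above background, and the difference from WT, −1.70 ± 0.51, did not pass the test (limma adjusted p = 0.137), while the value in TIAR KO MEF was −3.45 ± 0.15, at least 10.3-fold higher in WT.

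A call needed a fold change above 2 and a p, adjusted over all probes by Benjamini-Hochberg, under 0.05. Both Oas1a probes are left out of the counts that follow. In TIA1 KO MEF 2 of the other 10 probes were called lower (Oas1c and Oas3) and 0 higher, where 1.36% of all probes were called lower and 2.18% higher. With scaling to a common array median this split turned over, with 14184 of 16041 called probes lower, and 6 of the 10 were then called lower. At an unadjusted limma p under 0.05, 8 of the 10 differed, some of them upwards, as did 15484 of all 55681 probes. Without WT replicate 1 or 2, limma called 0 of the 10 probes and 0 of all probes, with 3 and 4 of the 10 at an unadjusted p under 0.05. With 1 WT array left, the TIA1 KO arrays alone gave the spread of those fits. In TIAR KO MEF 6 of the 10 probes were called lower and 0 higher, where 2.37% of all probes were called lower and 3.39% higher (2776 of 4179 called probes lower with a common median). The choice of the family used this comparison, so nothing is read from that count. The sizes in TIAR KO MEF moved with the processing. With the scanner's processed intensities, scaled to the 75th percentile, the log2 fold changes were −4.87 for Oas2, −4.11 for Oas3, −6.09 for Oasl1 and −6.53 for Oasl2. None of these probes was well above background in TIAR KO MEF, so the values are not exact folds.

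**Figure D3:**
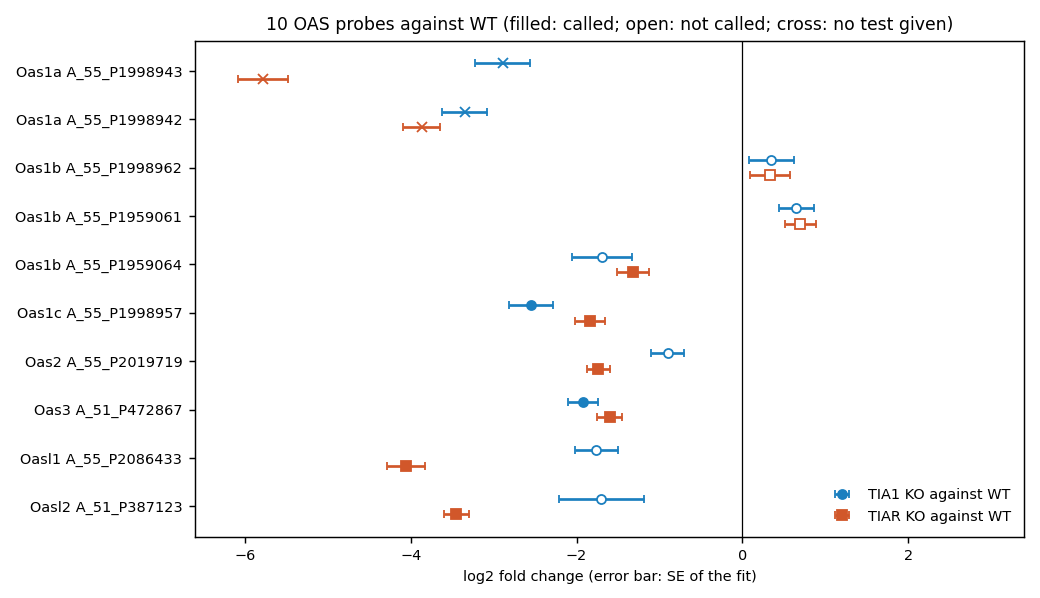
Log2 fold change against WT of 10 OAS probes, leaving out the 2 of Oas1g that were near background in all groups, in TIA1 KO (circles) and TIAR KO MEF (squares), with bars for the SE of the limma fit (n = 2 arrays per group), filled where called, open where not and crosses for Oas1a, for which no test is given. The brightest Oas1a probe reaches −5.78 in TIAR KO MEF, and 2 probes of Oas1b lie at or above 0.33 in both knockouts.

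Between the knockouts, 1 of the 10 probes, Oasl1, was called lower in TIAR KO MEF, where 1.63% of all probes were called lower and 1.72% higher. This comparison shares the TIAR KO arrays that led to the choice of the family, so the count is a description. Of all called probes 1082 of 8416 were lower with a common median and 1384 of 1509 with processed intensities, and Oasl1 was called lower with both. Without TIAR KO replicate 1 or 2, 0 of the 10 and 0 of all probes were called by limma, with 1 of the 10 at an unadjusted p under 0.05 each time. With 1 TIAR KO array left, the TIA1 KO arrays alone gave the spread of those fits. For Oasl2 the difference between the knockouts, −1.74 ± 0.50, did not pass the test (limma adjusted p = 0.160), and Oas2 and Oas3 were near background in both knockouts.

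Around the spots, the TIA1 KO arrays were brighter than the others. The median local background was 89.5 and 58 on the TIA1 KO arrays against 52 and 47 on the WT and 46 and 42 on the TIAR KO arrays. At the spots on TIA1 KO array 1 it was 310 for the brightest Oas1a probe, 310 for Oas2, 301 for Oasl1 and 450 for Oasl2, while it was 228 and 119 at the Oas1g spots and 178 and 160 at those of the brighter Oas1b probes. At the other 4 spots it was 57 for Oas1c, 54 for Oas3, 53 for the third Oas1b probe and 45 for the second Oas1a probe. The raw intensity of Oas2 was 883 on TIA1 KO array 1 and 227 on array 2, against 324 and 300 in WT MEF. For Oasl2 it was 1405 and 293, against 1304 and 1352. On TIA1 KO array 1 these genes thus read below WT only after background correction and normalization. The part of the local background in these values was not tested. The TIA1 KO arrays also lay in a slide row apart from the other 4, so slide row and TIA1 KO cannot be told apart.

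Partners of the OAS enzymes in the 2-5A pathway had 6 probes of 4 genes. Of these, 0 were called in TIA1 KO MEF and 1 was called lower in TIAR KO MEF. Of all probes 1.36% and 2.37% were called lower. Abce1, which encodes an ATPase that acts in ribosome recycling, read 15.21 and 15.39 (WT), 14.83 and 15.18 (TIA1 KO) and 14.95 and 15.07 (TIAR KO). Pde12, whose product degrades 2-5A, read 9.39 and 10.13 (WT), 10.07 and 10.11 (TIA1 KO) and 10.13 and 10.11 (TIAR KO). Akap7, whose product has a domain related to 2-5A phosphodiesterases, read 10.04 and 10.16 (WT) and 10.07 and 10.22 (TIA1 KO) by its brightest probe, and its log2 fold change in TIAR KO MEF, 0.88, was below the fold needed for a call. None of the probes of these 3 genes was called by limma in TIA1 KO MEF, with 1 (the dimmest Akap7 probe) at an unadjusted p under 0.05. That probe, at 9.16 and 9.09 (WT) and 8.15 and 8.00 (TIAR KO), was called lower in TIAR KO MEF.

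Genes that act in interferon signalling were mixed. Of 16 probes of 13 genes, 3 were called lower in each knockout, and these were Irf7, Usp18 and Socs1 in both, while 1 of the 2 Irf1 probes was called higher in TIAR KO MEF. Of all probes 1.36% (TIA1 KO) and 2.37% (TIAR KO) were called lower. Irf7, a transcription factor that drives interferon genes, read 8.88 and 8.93 (WT), 6.82 and 7.31 (TIA1 KO) and 7.39 and 7.25 (TIAR KO). Usp18, which removes ISG15 from proteins and dampens the interferon receptor, read 9.43 and 9.44 (WT), 6.83 and 7.16 (TIA1 KO) and 7.45 and 7.30 (TIAR KO). Neither was well above background in a knockout. Socs1, an inhibitor of JAK kinases, fell by 1.29 ± 0.16 on the log2 scale in TIA1 KO MEF (limma adjusted p = 0.0372) and read 10.87 and 10.28 in TIAR KO MEF against 12.16 and 12.31 in WT MEF.

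Stat2 and Irf9 were called in neither knockout. Stat2 read 11.09 and 11.09 (WT), 10.90 and 11.10 (TIA1 KO) and 11.63 and 11.51 (TIAR KO). Irf9 read 11.56 and 11.44 (WT), 11.50 and 11.16 (TIA1 KO) and 10.71 and 10.82 (TIAR KO). The single probe of Ifnb1, the gene of interferon beta, was not well above background on any array. Irf1, another interferon-regulated transcription factor, read 12.70 and 12.78 (WT), 12.72 and 12.72 (TIA1 KO) and 13.85 and 13.82 (TIAR KO), higher in TIAR KO MEF and close to WT in TIA1 KO MEF. Over the 16 probes the median log2 fold change was −0.48 (TIA1 KO) and −0.13 (TIAR KO).

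Sensors of foreign nucleic acid were read next. Of 16 probes of 10 genes, 0 were called by limma in TIA1 KO MEF (8 at an unadjusted p under 0.05) and 2 were called lower in TIAR KO MEF, where the shares of all probes called lower were 1.36% and 2.37%. The medians were −0.59 and −0.42. Those 2 were the brightest probe of Ifih1, the gene of the RNA sensor MDA5, at 8.83 and 8.93 in TIAR KO against 10.51 and 10.62 in WT MEF, and a dimmer probe of Mb21d1, the gene of the DNA sensor cGAS. The second Ifih1 probe read 9.55 and 6.69 in TIAR KO against 7.82 and 7.79 in WT MEF and was not called, so the Ifih1 probes disagree. Eif2ak2, the gene of the RNA-activated kinase PKR, read 11.40 and 11.65 (WT), 11.79 and 12.01 (TIA1 KO) and 12.46 and 11.79 (TIAR KO), and was not called. Ddx58, Dhx58 and Mavs were not called either, but their values lay lower in the knockouts. The log2 fold changes in TIA1 KO and TIAR KO MEF were −1.39 and −0.31 for the brightest Ddx58 probe. They were −0.85 and −0.90 for Dhx58 and −0.50 and −0.54 for Mavs.

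Among other interferon-induced genes, more probes were called lower than higher. Of 35 probes of 25 genes, 17 were called lower when TIA1 was missing and 16 when TIAR was missing, from 15 genes each, where 1.36% and 2.37% of all probes were called lower. The medians were −1.46 and −0.76, against −0.09 and −0.02 over all probes. The 2 probes called higher, in TIA1 KO MEF (2.18% of all probes), were both of Irgm1, an immunity-related GTPase. In TIAR KO MEF 0 were called higher (3.39% of all probes). Isg15, a ubiquitin-like modifier, read 14.09 and 13.99 (WT), 11.97 and 11.70 (TIA1 KO) and 9.37 and 9.87 (TIAR KO), the same order of groups as Oas1a. It fell by 2.21 ± 0.18 on the log2 scale in TIA1 KO MEF (limma adjusted p = 0.0164), and the direct difference between the knockouts was −2.21 ± 0.24 (limma adjusted p = 0.0323).

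Rsad2, the gene of the antiviral enzyme viperin, read 8.74 and 8.76 (WT), 6.55 and 6.75 (TIA1 KO) and 6.93 and 6.91 (TIAR KO). Bst2, the gene of tetherin, read 14.47 and 14.68 (WT), 12.83 and 12.94 (TIA1 KO) and 11.79 and 12.01 (TIAR KO). Cxcl10, a chemokine, read 13.29 and 13.65 (WT), 11.06 and 11.06 (TIA1 KO) and 9.62 and 10.54 (TIAR KO). In all 3 the knockout arrays lay below both WT arrays. Psmb8, a subunit of the immunoproteasome, fell by 3.18 ± 0.38 on the log2 scale in TIA1 KO MEF (limma adjusted p = 0.0358), where it was not well above background and WT was at least 6.21-fold higher, and had a log2 fold change of −2.70 ± 0.31 in TIAR KO MEF. The other genes called lower in both knockouts were Igtp, Gbp3, Psmb9, Parp14, Rtp4, Cmpk2 and Ifi27, which the files name Ifi27l1.

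Some of the list were called in 1 knockout. Isg20, an exonuclease gene, read 14.29 and 14.37 (WT), 12.03 and 12.20 (TIA1 KO) and 14.25 and 12.90 (TIAR KO) by its brightest probe, which was called lower in TIA1 KO MEF alone. Between the knockouts this probe did not pass the test (limma adjusted p = 0.196), while the second Isg20 probe was higher in TIAR KO than in TIA1 KO MEF (log2 fold change 2.50 ± 0.26, limma adjusted p = 0.0279). Gbp2 and the brightest probe of Trim25 were likewise called lower in TIA1 KO MEF and not in TIAR KO MEF, without passing the direct test (limma adjusted p = 0.102 and 0.075). The second Trim25 probe had a log2 fold change of 0.09 ± 0.20 in TIA1 KO MEF (limma adjusted p = 0.790), so the probes of Trim25 disagree. Ifit1, Ifi44 and Xaf1 were called lower in TIAR KO MEF and not in TIA1 KO MEF, and their direct differences between the knockouts did not pass the test (limma adjusted p = 0.305, 0.785 and 0.983). Ifit2, which binds RNA like Ifit1, read 10.48 and 11.02 (WT), 11.06 and 11.34 (TIA1 KO) and 11.32 and 11.24 (TIAR KO), and Ifit3 was not called either. Mx1 was not well above background in WT MEF, at 6.90 and 6.84.

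**Figure D4:**
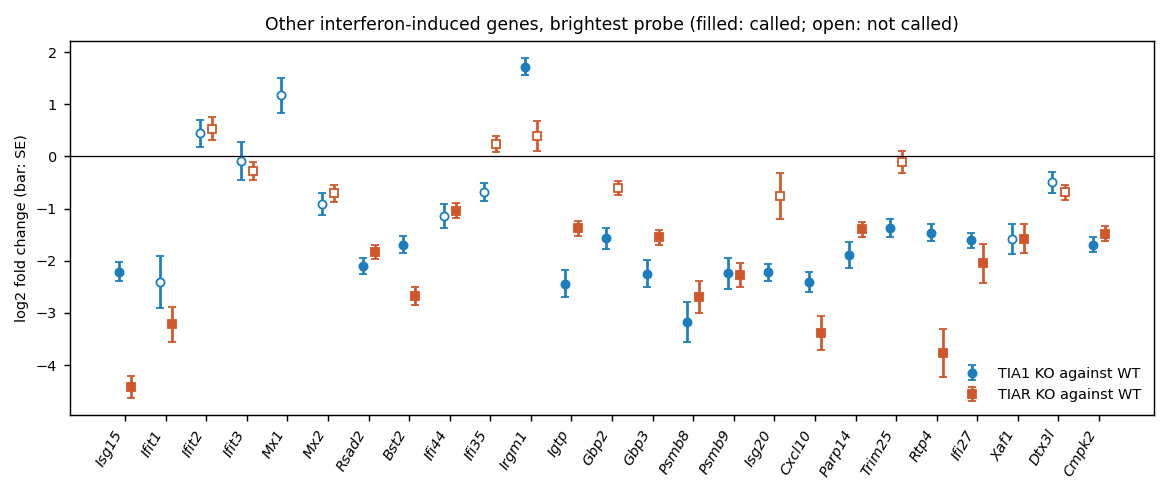
Log2 fold change against WT of the brightest probe of each of the 25 other interferon-induced genes, in TIA1 KO (circles) and TIAR KO MEF (squares), with bars for the SE of the limma fit (n = 2 arrays per group), filled where called and open where not, and no point where both groups were near background (Mx1 in TIAR KO MEF). Isg15 lies at −2.21 and −4.42, and Irgm1 is filled above 0 in TIA1 KO MEF.

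The other genes named Oas1 were dim apart from Oas1f. Oas1d read 7.82 and 7.75 in WT MEF and between 6.70 and 7.35 in the knockouts, Oas1e read 7.73 and 8.15 in WT MEF, and Oas1h was not well above background on any array. Of their 5 probes limma called 0 in TIA1 KO MEF (3 at an unadjusted p under 0.05) and 1, Oas1f, lower in TIAR KO MEF. Of all 55681 probes, 1.36% (TIA1 KO) and 2.37% (TIAR KO) were called lower. In TIA1 KO MEF 15484 of them were at an unadjusted limma p under 0.05.

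The pattern of the brightest Oas1a probe over the 6 arrays was set beside that of 25295 other probes, each centred on its own mean. The 5 nearest genes, by the root mean square distance on the log2 scale, were Lrba (0.36), Plagl1 (0.42), Hoxd10 (0.49), Gpnmb (0.57) and 2610318N02Rik (0.58), none of which is in the lists of interferon genes above. Within the family the nearest were Oasl1 (0.72), Oasl2 (1.03) and the second Oas1a probe (1.06), and the farthest were the brighter Oas1b probes (2.50 and 2.65). This is a description over 6 arrays in 3 groups.

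The cell type was checked with marker genes. Vim, the gene of vimentin, was bright on all arrays, at 17.24 and 17.49 (WT), 17.75 and 17.87 (TIA1 KO) and 17.82 and 17.89 (TIAR KO). Of 7 fibroblast markers, 5 were called higher in the TIA1 KO and 6 in the TIAR KO comparison, where 2.18% and 3.39% of all probes were called higher, and Vim was called in neither. Their summed linear intensity was 322000 and 303000 (WT), 1080000 and 1040000 (TIA1 KO) and 1040000 and 1020000 (TIAR KO). Col3a1, a collagen gene, read 9.52 and 9.08 (WT), 15.59 and 15.65 (TIA1 KO) and 15.16 and 16.65 (TIAR KO). Thy1, a fibroblast surface marker, was well above background on 1 WT array, on 0 TIA1 KO arrays and on 2 TIAR KO arrays, where it read 14.84 and 14.74. The part of this difference between the cultures in the OAS values was not tested.

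Markers of other cell types were also read. Among 6 macrophage and leukocyte markers, Ptprc, Emr1 and Lyz2 were not well above background on any array. The brightest probe of Csf1r was well above background on all arrays but 1 of TIA1 KO. It read 8.92 and 9.03 (WT), 9.66 and 8.81 (TIA1 KO) and 9.20 and 9.23 (TIAR KO). Cd14 and the brightest probe of Cd68 were well above background on every array. In WT MEF Cd14 read 12.1 and 12.45, and this Cd68 probe read 10.89 and 10.15. The summed linear intensity of the 6 was 7200 and 7620 (WT), 8360 and 7960 (TIA1 KO) and 6140 and 6160 (TIAR KO). Cd14 was called lower in TIAR KO MEF than in WT MEF (log2 fold change −1.32 ± 0.18, limma adjusted p = 0.0136), and between the knockouts Cd14 was called lower and Cd68 higher in TIAR KO MEF. Of 4 epithelial markers, 1 was called higher in TIA1 KO MEF (Krt8) and 3 in TIAR KO MEF (Cdh1, Krt8 and Krt18). Of all probes 2.18% and 3.39% were called higher. The second Krt8 probe was called in neither comparison with WT. The summed linear intensities of the 4 were 681 and 701 (WT), 1040 and 1340 (TIA1 KO) and 2220 and 2180 (TIAR KO). Epcam was well above background on 1 array. The 3 endothelial markers summed to 2740 and 3000 (WT), 3080 and 3130 (TIA1 KO) and 3210 and 3600 (TIAR KO) in linear intensity. Cdh5 was not well above background on any array and Kdr read between 11.23 and 11.65 by its brightest probe. Its second probe was called higher in TIAR KO MEF.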

How the data were processed

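For each array the authors deposited spot intensities with local backgrounds and quality flags, as written by the scanner software (Agilent Feature Extraction), and log2 values per probe that they had normalized themselves. Here mean intensities were corrected by normexp (offset 50). Their log2 values were adjusted by loess, with the average of the 6 arrays as reference, and then quantile normalized. Control and outlier spots were left out, and spots of a probe averaged. Well above background means so rated by the software on at least 50% of a probe's spots. Each comparison was fitted with limma 3.58.1 (R 4.3.3) on its own 4 arrays, with Benjamini-Hochberg adjustment over 55681 probes. On simulated data the fit recovered the direction and typical size of known changes. In both comparisons with TIA1 KO it missed nearly all of the smaller and many of the larger ones. In TIAR KO against WT MEF it missed most of the smaller and some of the larger ones. These misses describe the planted changes only. On the measured arrays, TIA1 KO against WT MEF, the fit called Oas3 at −1.92 and Socs1 at −1.29. How many real changes it missed was not tested. A difference that did not pass the test is therefore not shown to be absent. The brightest probe (highest mean over 6 arrays) stands for a gene. Named genes were all 8 members, list genes called in a comparison with up to 4 other examples, the knocked-out genes, and the 5 genes nearest to Oas1a. Members and lists were chosen with earlier results of these data, and the study's supplementary gene lists, known. Between 16000 and 26254 probes were well above background per array, and 2 arrays per group limit the precision. Gene names and promoters came from RefSeq tables of GRCm38.p6, probe positions from the files (mm9). Figures were drawn with matplotlib 3.10.9. Some genes of the lists are not reported here.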

Additional observations from a re-analysis of the deposited data

Results flagged for a closer look

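By their brightest probes, and leaving out Oas1a, 3 genes of the OAS family and the interferon lists differed between the knockouts in the direct comparison of TIAR KO with TIA1 KO MEF. On the log2 scale the difference of TIAR KO from TIA1 KO MEF was −2.30 ± 0.18 for Oasl1 (limma adjusted p = 0.0154), lower in TIAR KO MEF. It was −2.21 ± 0.24 for Isg15 (limma adjusted p = 0.0323), also lower in TIAR KO MEF, and 1.12 ± 0.15 for Irf1 (limma adjusted p = 0.0443), higher in TIAR KO MEF. The second Isg15 probe gave −1.10 ± 0.41 and did not pass the test (limma adjusted p = 0.220). Among dimmer probes the second of Isg20 was higher in TIAR KO MEF (2.50 ± 0.26, limma adjusted p = 0.0279). The family was chosen on the Oas1a signal of the same TIAR KO arrays, so the p-values of its members are not independent of that choice. With a replicate block 0 of all probes were called in this comparison. The log2 fold change of Oasl1 was then still −2.30 (limma adjusted p = 0.0776).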

How the results depend on the processing

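Without Oas1a, 2 of the 10 member probes were called in TIA1 KO against WT MEF. It was 0 with the processed intensities scaled to the 75th percentile (5 at an unadjusted limma p under 0.05), 6 with scaling to a common median, 4 with all groups in one fit, 1 with a replicate block and between 0 and 6 when 1 array was left out. The lowest of these came without WT replicate 1 or 2, and the highest without TIA1 KO replicate 2. Between the knockouts it was 1, 0 with a replicate block (3 at an unadjusted limma p under 0.05) and between 0 and 5 when 1 array was left out, with 0 without either TIAR KO replicate and 5 without TIA1 KO replicate 2. Both Oas1a probes included, from which nothing is read, the count in TIA1 KO against WT MEF was 4 of 12, with 0 (7 at an unadjusted limma p under 0.05) for processed intensities, 8 for the common median, 2 for the replicate block and 0 to 8 with 1 array left out. Between the knockouts it was 2 of 12, with 0 for the replicate block (4 at an unadjusted limma p under 0.05) and 0 to 6 with 1 array left out. In TIAR KO against WT MEF the log2 fold changes grew with processed intensities, for Oas1a from −5.78 to −9.48, for Oas2 from −1.74 to −4.87 and for Oas3 from −1.60 to −4.11. None of these genes was well above background in TIAR KO MEF, so the values are not exact folds. Where 1 array was left out, the other group alone gave the spread of the fit. The correlations of replicate differences between the groups were 0.08, 0.03 and −0.07. These values do not settle whether the arrays were paired by replicate number.

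Over all probes 1969 were called in TIA1 KO MEF, and 0 with processed intensities (27765 at an unadjusted limma p under 0.05), 16041 with a common median (14184 of them lower, against 756 of 1969), 3986 with all groups in one fit, 1293 with the authors' table, 671 with a replicate block and 0 to 10735 with 1 array left out. Between the knockouts 1866 were called, and 8416 with a common median, 2910 among probes well above background, 3183 with all groups in one fit, 0 with a replicate block (10675 at an unadjusted limma p under 0.05) and 0 to 10086 with 1 array left out. The common median moved the median of all probes in TIA1 KO MEF from −0.09 to −0.68, and Oas1b reversed to −1.25 there. Processed intensities moved that median to 1.98. Why these counts moved was not tested. In TIA1 KO against WT MEF, Oas1c, Oas2, Oas3, Oasl1 and Oasl2 kept their direction in all 12 alternatives.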
